A study of Gallus gallus with 6 samples.

Results

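Genes of fatty acid synthesis, uptake and storage, with markers of fat cells, were followed in RNA from chicken (Gallus gallus) muscle cell cultures. The set was FASN, SCD, ME1, LPL, FABP4, ADIPOQ, ACSL1, Lpin1 (LPIN1), AGPAT2 and PLIN1, chosen by gene name irrespective of case. All 10 names had 1 entry each among the 26591 gene entries of the tables. The cells were primary cells from embryonic skeletal muscle at passage 1. Proliferating myoblasts (3 libraries) were kept in RPMI-1640 with 15% fetal bovine serum, and differentiated myotubes (3 libraries) in the same basal medium with horse serum at 2%. Penicillin and streptomycin (2%) were in either medium, and no strain, sex or embryo age is stated for the cells. Serum kind, serum amount and cell state changed together, so their effects cannot be told apart. Whether replicates were separate cultures or animals is not stated by the labels, and the p-values therefore measure the spread between these libraries, which may be technical.

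Fatty acids are built in the cytosol from acetyl-CoA and NADPH by fatty acid synthase, and stearoyl-CoA desaturase then introduces a double bond. In birds most of this synthesis takes place in the liver, while muscle and fat take up fatty acids that lipoprotein lipase releases from circulating triglyceride. Inside the cell, binding proteins carry the fatty acids, acyl-CoA synthetases activate them, and they are either oxidised in mitochondria and peroxisomes or esterified by acyltransferases and lipins into glycerolipids that are stored in perilipin-coated droplets. Adiponectin is a hormone that fat cells secrete.

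Total counts ran from 21893152 to 27546527 per library. In bulk RNA, fewer cells of a type and less RNA per cell cannot be told apart. Myoblast replicate 3 stood apart from the other myoblast libraries. Its summed level of 11 muscle markers was 6921 FPKM (read counts scaled by gene length and sequencing depth) against 3703 and 3575 FPKM in replicates 1 and 2, its sum of 13 macrophage markers was 295 against 131 and 139 FPKM, and its sum of 16 fibroblast markers was 1356 against 2167 and 2237 FPKM. In myotubes these sums ran from 2262 to 2327 FPKM for muscle, 260 to 298 FPKM for macrophage and 4819 to 5557 FPKM for fibroblast markers. Of the tested markers, 0 of 11 muscle genes were called higher and 6 lower, 5 of 13 macrophage genes higher and 0 lower, and 11 of 15 fibroblast genes higher and 1 lower. Over all tested genes, 30.0% were called higher and 29.1% lower. Both counts of 0 were also 0 at an unadjusted p under 0.05 in edgeR and 0 by DESeq2. The muscle list mixes transcription factor genes with structural genes, and both kinds were among the 6 called lower. By log2 change these were Pax-7 (-1.91), MYF5 (-2.93), MYOD1 (-0.75), DES (-2.47), MYH15 (-1.31) and TNNI2 (-0.92), named after their values were seen. The other 5 muscle genes had no call. Without myoblast replicate 3, 1 muscle gene and 11 macrophage genes were called higher. Without any 1 of the other 5 libraries, 3 macrophage genes were called higher. Of 10 endothelial markers with an entry, 2 of 9 tested were called higher and 4 lower, and their sum was between 13.7 and 17.4 FPKM in myoblasts and between 28.6 and 35.4 FPKM in myotubes. The higher sum came from CLDN5 (5.14 ± 0.367 to 24.4 ± 2.91 FPKM) and EGFL7 (2.04 ± 0.461 to 5.89 ± 0.788 FPKM), while FLT1 (4.94 ± 0.956 to 1.24 ± 0.206 FPKM), SOX18, KDR and TIE1 were called lower. These genes were named after their values were seen. No entry of these 4 marker lists was at 0 counts in all libraries. The part of these cell types in the results below was not tested.

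Of the 3 synthesis enzymes in the set, ME1 rose, SCD fell and FASN had no call, the adipocyte hormone gene ADIPOQ fell, and Lpin1 and AGPAT2, both of glycerolipid synthesis, rose 1.84-fold and 1.79-fold. In all, 5 of the 10 genes were called higher in myotubes (ME1, ACSL1, Lpin1, AGPAT2 and PLIN1), 2 lower (SCD and ADIPOQ) and 3 had no call (FASN, LPL and FABP4). A call is a Benjamini-Hochberg adjusted p under 0.05 in edgeR's quasi-likelihood test over the 15959 genes that passed a filter on low counts, which all 10 genes passed. Over all tested genes, 30.0% were called higher, 29.1% lower and 59.1% in either direction, so that 7 calls of 10 are near the background. FPKM did not overlap between the groups in 9 of the 10 genes, against 66.7% of all tested genes. The median log2 change was 0.41 over the 10 genes and 0.0003 over all tested genes. Of all calls, 50.7% were rises, against 39.0% with limma on TPM, a scaling that moved the median of all genes to -0.13 on the log2 scale.

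**Figure D1:**
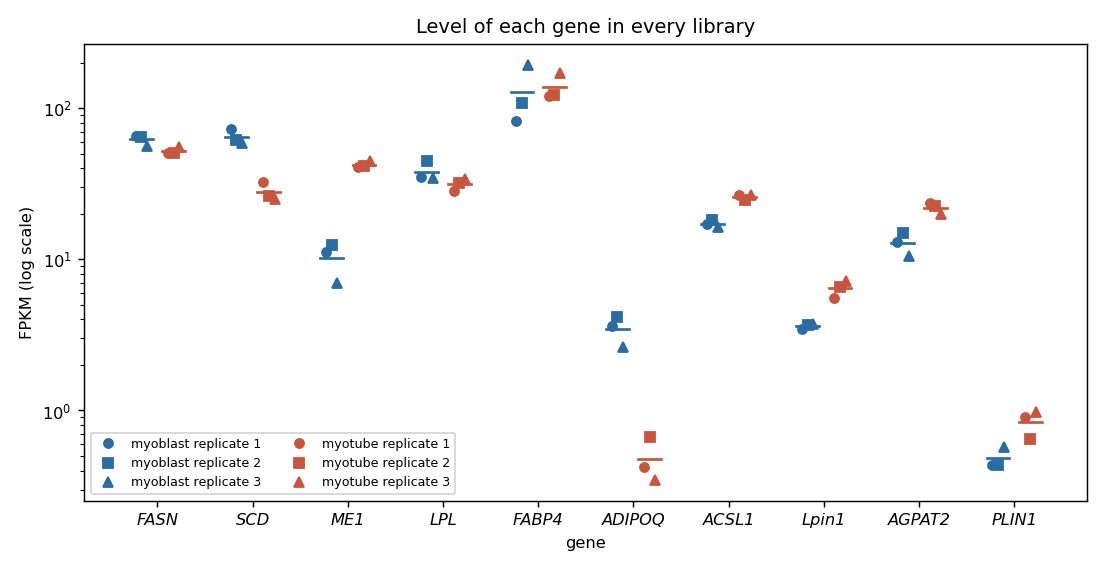
Level of the 10 genes in FPKM on a log axis, with 1 point per library (blue for myoblast, red for myotube, shape for replicate) and a bar at each group mean. FABP4 is highest and overlaps between the groups, ADIPOQ drops below 0.7 FPKM in every myotube library, and ME1 rises from about 10.2 to 42.2 FPKM.

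Levels per gene length spanned more than 2 orders of magnitude. In myoblasts FABP4 was highest at a mean of 128 FPKM, followed by SCD (64.5) and FASN (62.1), whose ranges overlapped, then LPL (38.1), ACSL1 (17.1), AGPAT2 (12.8) and ME1 (10.2), of which the last pair overlapped. Lpin1 (3.63) and ADIPOQ (3.47) also overlapped, and PLIN1 was lowest at 0.482 FPKM. In myotubes the order of mean FPKM was FABP4 (138), FASN (51.9), ME1 (42.2), LPL (31.3), SCD (27.9), ACSL1 (26.0), AGPAT2 (22.0), Lpin1 (6.42), PLIN1 (0.842) and ADIPOQ (0.477). There, LPL overlapped SCD, SCD overlapped ACSL1, and PLIN1 overlapped ADIPOQ. ME1 thus moved from rank 7 to rank 3 and SCD from rank 2 to rank 5. The FPKM of FASN, ACSL1, ME1, PLIN1, SCD and Lpin1 implied a gene length of 68.9%, 69.8%, 78.0%, 82.7%, 87.5% and 92.2% of the tabulated one, the same in every library, so that this touches the order between genes and not the comparison of groups. On the tabulated lengths, an alternative chosen after seeing the data, mean AGPAT2 was above ACSL1 in both groups and ADIPOQ above Lpin1 in myoblasts. In myoblasts the ranges of either pair overlapped. The other ranks of the means held, but not every gap between ranges did. FASN (38.7 to 45.1) now overlapped LPL (34.3 to 44.7) in myoblasts, and ME1 (31.8 to 34.7) overlapped LPL (28.2 to 33.9) in myotubes. SCD (21.8 to 28.6) overlapped AGPAT2 (19.8 to 23.5) in myotubes and no longer ACSL1 (17.3 to 18.7). In myoblasts SCD (51.6 to 63.7) no longer overlapped FASN, and AGPAT2 (10.4 to 14.95) no longer overlapped ME1 (5.47 to 9.74).

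FASN encodes fatty acid synthase (ENSGALG00000040896, chromosome 18, 4968055 to 5062966, genome build not stated by the tables or labels). Its level was 65.4, 64.8 and 56.1 FPKM in the myoblast libraries and 50.3, 50.5 and 54.9 FPKM in the myotube libraries (replicates 1, 2 and 3 in this order here and below). The groups did not overlap, but the nearest libraries, myoblast replicate 3 and myotube replicate 3, lay close together. The log2 change, myotube minus myoblast, was -0.20 ± 0.08 (SE) with no call (edgeR adjusted p = 0.0599). A fall was called when myoblast replicate 3 was left out (-0.25, edgeR adjusted p = 0.0117) and in every limma fit run. It was also called with DESeq2 size factors in edgeR (adjusted p = 0.0485) and with library totals only (adjusted p = 0.0340). No fall was called by DESeq2 itself, with the replicate block, with no filter or without any other single library. With 1 library left out the log2 change lay between -0.25 and -0.16 (edgeR adjusted p up to 0.2185). The span of FASN overlaps 9 other entries, among them RFNG and DUS1L on the same strand and GPS1 on the opposite one. The highest of these entries had a mean of 86.3 FPKM over all libraries, against 57.0 FPKM for FASN. These are overlaps of whole spans, and whether any exons are shared was not examined. With the strand setting also unknown, it cannot be said whether reads of these genes were mixed.

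SCD encodes stearoyl-CoA desaturase (ENSGALG00000005739, chromosome 6, 17493789 to 17509405). It stood at 72.7, 61.9 and 58.9 FPKM in the myoblast libraries and at 32.7, 26.2 and 25.0 FPKM in the myotube libraries. Every myotube library was below every myoblast library, and the log2 change was -1.15 ± 0.13 (edgeR adjusted p = 0.000153). The FPKM ratio of SCD to FASN was 1.11, 0.955 and 1.05 in the myoblast libraries and 0.649, 0.518 and 0.454 in the myotube libraries, with no overlap between the groups. The level of this ratio depends on the gene lengths used, while its comparison between the groups does not.

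ME1 encodes the cytosolic malic enzyme, which makes NADPH for fatty acid synthesis (ENSGALG00000015849, chromosome 3, 78041071 to 78198472). Its level was 11.2, 12.5 and 7.01 FPKM in the myoblast libraries and 40.7, 41.3 and 44.5 FPKM in the myotube libraries. The myotube libraries lay close to each other and far above the myoblast ones, with the lowest value in myoblast replicate 3. ME1 rose 4.31-fold (log2 change 2.11 ± 0.18, edgeR adjusted p = 3.40e-05), and by 1.91 on the log2 scale without that library. The ratio of ME1 to FASN in FPKM went from 0.163 ± 0.0346 to 0.812 ± 0.00484 (mean ± SD, n = 3 each). The level of this ratio, too, depends on the gene lengths used. An entry on the opposite strand, RWDD2A, overlaps the span of ME1. Shared exons were not examined and the strand setting is unknown, so any mixing of their reads cannot be judged.

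Of 9 other tested genes of fatty acid synthesis, 5 were called higher and 2 lower, against 30.0% and 29.1% of all tested genes. The median log2 change of the 9 was 0.46, against 0.0003 over all tested genes. That median was the value of ME3, the mitochondrial malic enzyme. ACLY, which makes cytosolic acetyl-CoA from citrate, fell from 76.2 ± 4.98 to 51.8 ± 1.76 FPKM (-0.50 ± 0.08, edgeR adjusted p = 0.000667), and ACACA, the acetyl-CoA carboxylase of the cytosol, fell from 24.9 ± 3.44 to 17.0 ± 1.54 FPKM (-0.49 ± 0.11). ACSS2, which makes acetyl-CoA from acetate, rose 2.24-fold, and the NADPH-producing dehydrogenases IDH1 and PGD rose 2.20-fold and 1.45-fold. IDH1 reached 137 ± 4.06 FPKM and PGD 121 ± 6.77 FPKM in myotubes. The other carboxylase gene, ACACB, named after its value was seen, was called higher but stood at 0.187 ± 0.0674 and 1.43 ± 0.152 FPKM.

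Among 11 other tested desaturation and elongation genes, 3 were called higher and 4 lower (median -0.05), against 30.0% and 29.1% of all tested genes. ELOVL6, an elongase of saturated fatty acids, fell from 35.9 ± 1.54 to 11.3 ± 1.12 FPKM (-1.61 ± 0.10, edgeR adjusted p = 7.37e-06). HSD17B12, a reductase of the elongation cycle, changed by -0.51 ± 0.08 and the dehydratase HACD1 by -0.75 ± 0.24. HACD1 was at -0.36 without myoblast replicate 3, and leaving out myotube replicate 1, 2 or 3 ended its call (edgeR adjusted p = 0.0900, 0.0990 and 0.0545). SCD5, a second stearoyl-CoA desaturase gene, rose 5.54-fold, from 7.51, 8.72 and 5.24 FPKM in the myoblast libraries to 39.5, 38.3 and 36.0 FPKM in the myotube libraries (2.47 ± 0.16, edgeR adjusted p = 1.01e-05). HACD4 rose 2.68-fold, a call that ended when myoblast replicate 1 or myotube replicate 2 was left out (edgeR adjusted p = 0.0539 and 0.0584). Either of these omissions left 1 gene of the list called higher in place of 3.

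LPL encodes lipoprotein lipase (ENSGALG00000015425, chromosome Z, 54528388 to 54543657). Its level was 35.2, 44.7 and 34.3 FPKM in the myoblast libraries and 28.2, 31.9 and 33.9 FPKM in the myotube libraries. The ranges were next to each other without overlap, and myoblast replicate 2 was highest. The log2 change was -0.22 ± 0.11 with no call (edgeR adjusted p = 0.109). LPL was called lower without myoblast replicate 3 (-0.28, edgeR adjusted p = 0.0420) and by limma on TPM (-0.37, or -0.24 relative to the median of all genes, limma adjusted p = 0.0284). The other fits gave LPL no call. With 1 library left out its log2 change lay between -0.28 and -0.10 (edgeR adjusted p up to 0.3665).

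FABP4, the fatty acid binding protein of fat cells and macrophages (ENSGALG00000030025, chromosome 2, 121975264 to 121978486), had the widest spread in myoblasts. It stood at 82.1, 109 and 194 FPKM in the myoblast libraries and at 121, 122 and 172 FPKM in the myotube libraries. The groups overlapped, and the highest value of all was in myoblast replicate 3, at 2.03 times the mean of the other myoblast libraries. The log2 change was 0.15 ± 0.30 with no call (edgeR adjusted p = 0.679). Without myoblast replicate 3 it was 0.61 ± 0.16 and called higher (edgeR adjusted p = 0.00818), while leaving out myoblast replicate 1 gave -0.09 and leaving out myotube replicate 3 gave -0.02. The macrophage marker sum in the same libraries was 131, 139 and 295 FPKM in myoblasts and 260, 282 and 298 FPKM in myotubes. FABP4 and this sum were both lowest in myoblast replicates 1 and 2, and so was FABP3 (131 and 123 FPKM). FABP4 and the macrophage sum were both higher in myoblast replicate 3 than in myotube replicates 1 and 2, FABP4 by a wider margin. Single markers of the sum differed in this. C1QB stood at 48.8 FPKM in myoblast replicate 3 against 23.9 and 26.1 FPKM in those myotube libraries. CTSS stood at 32.4 against 46.9 and 53.3 FPKM. Both markers were named after their values were seen. A link between FABP4 and these markers was not tested.

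**Figure D2:**
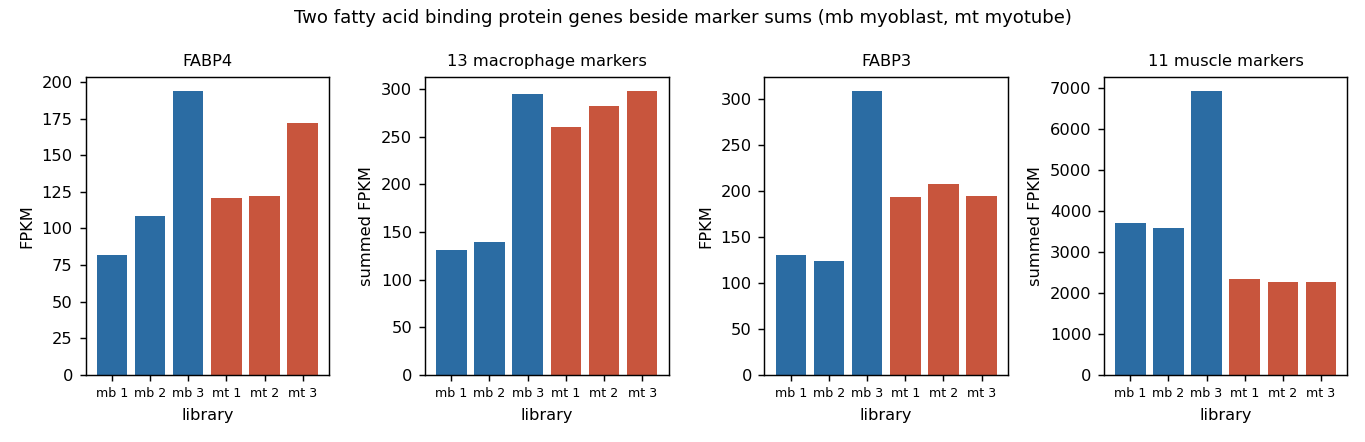
FPKM of FABP4 and FABP3 and summed FPKM of the macrophage and muscle marker lists, 1 bar per library (blue for myoblast, red for myotube). Myoblast replicate 3 is the highest of the myoblast libraries in all 4 panels.

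FABP4 was second to FABP3 within its family. FABP3, the fatty acid carrier of heart and skeletal muscle, stood at 131, 123 and 308 FPKM in the myoblast libraries and 194, 207 and 195 FPKM in the myotube libraries, which differed by 0.13 ± 0.33 on the log2 scale and had no call (edgeR adjusted p = 0.760). Without myoblast replicate 3 FABP3 was called higher (0.71, edgeR adjusted p = 3.23e-05), and without myoblast replicate 1 or 2 it was at -0.09 and -0.11. FABP5 had no call at -0.36 ± 0.30 and was, without myoblast replicate 3, at 0.13. FABP6 (0.29 ± 0.23) and FABP7, the brain type, (0.03 ± 0.13) had no call either, and FABP2 did not pass the filter. FABP1, the liver type, fell from 17.6 ± 5.65 to 4.69 ± 0.919 FPKM (-1.86 ± 0.27, edgeR adjusted p = 0.000564).

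ACSL1 encodes a long-chain acyl-CoA synthetase (ENSGALG00000010628, chromosome 4, 39713691 to 39752253). Its values were 17.0, 18.1 and 16.2 FPKM in the myoblast libraries and 26.5, 24.7 and 26.7 FPKM in the myotube libraries. Both groups were tight and well apart. ACSL1 rose 1.58-fold (0.66 ± 0.07, edgeR adjusted p = 0.000136), while its paralogs ACSL3 and ACSL4 fell, by 0.68 ± 0.12 from 39.2 ± 6.96 FPKM and by 0.52 ± 0.09 from 25.7 ± 0.910 FPKM on the log2 scale (edgeR adjusted p = 0.00141 and 0.00121). ACSL5 was under 0.6 FPKM in every library with no call. The span of ACSL1 overlaps another entry, ENSGALG00000020210, on the same strand.

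Of 17 other tested uptake, binding and activation genes, 3 were called higher and 5 lower, against 30.0% and 29.1% of all tested genes. The median of the 17 was 0.13. LIPG, the endothelial lipase, and ACSBG2, an acyl-CoA synthetase of the bubblegum family, fell the most beside FABP1. LIPG went from 156, 157 and 103 FPKM in the myoblast libraries to 15.5, 13.05 and 11.0 FPKM in the myotube libraries (-3.33 ± 0.19, edgeR adjusted p = 6.02e-06), and ACSBG2 from 94.3 ± 6.28 to 29.6 ± 2.05 FPKM (-1.61 ± 0.09). ANGPTL4, an inhibitor of lipoprotein lipase in mammals, rose 2.05-fold to 58.0 ± 4.25 FPKM. The transporter gene SLC27A4 rose 1.27-fold and was not called by limma on TPM (adjusted p = 0.0836). With the members counted in, 4 genes of this list were called higher, and 7 without myoblast replicate 3.

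Lpin1 encodes lipin 1, the phosphatidate phosphatase that makes diacylglycerol (ENSGALG00000016456, chromosome 3, 97873227 to 97919894). It was at 3.46, 3.67 and 3.75 FPKM in the myoblast libraries and at 5.58, 6.51 and 7.17 FPKM in the myotube libraries. The groups did not overlap, and the gene rose 1.84-fold (0.88 ± 0.12, edgeR adjusted p = 0.000458). Lpin2, its paralog, fell from 14.6 ± 1.23 to 9.83 ± 1.05 FPKM (-0.51 ± 0.11, edgeR adjusted p = 0.00367). The FPKM of Lpin2 implied 58.5% of its tabulated length. By FPKM Lpin2 stood above Lpin1 in myotubes, while by the tabulated lengths the pair was not separated there. On the tabulated lengths Lpin2 was at 8.54 ± 0.721 in myoblasts and 5.75 ± 0.613 in myotubes, and Lpin1 at 3.34 ± 0.139 and 5.92 ± 0.738 (counts per kilobase, scaled by library total).

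AGPAT2 encodes an acyltransferase that makes phosphatidate (ENSGALG00000023517, chromosome 17, 8222165 to 8229069). Its level was 13.0, 15.0 and 10.4 FPKM in the myoblast libraries and 23.5, 22.6 and 19.8 FPKM in the myotube libraries. All myotube values lay above all myoblast values, and the rise was 1.79-fold (0.84 ± 0.14, edgeR adjusted p = 0.00130). AGPAT3, AGPAT4 and AGPAT5 had log2 changes of -0.04 ± 0.12, -0.13 ± 0.17 and -0.14 ± 0.12 with no call. Without myoblast replicate 3 AGPAT5 was called lower (-0.25, edgeR adjusted p = 0.0428) and AGPAT3 was at 0.10.

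Against 30.0% and 29.1% of all tested genes, 0 of 14 other tested genes of glycerolipid synthesis were called higher and 5 lower (median -0.18). Besides Lpin2 these included the lysocardiolipin acyltransferase LCLAT1, which fell from 77.4 ± 6.55 to 47.1 ± 2.96 FPKM (-0.66 ± 0.08, edgeR adjusted p = 0.000214), and the monoacylglycerol acyltransferase MOGAT1, which fell from 2.94 ± 0.222 to 1.58 ± 0.408 FPKM (-0.84 ± 0.24). The call of MOGAT1 did not hold when myotube replicate 1 or 3 was left out (edgeR adjusted p = 0.0541 and 0.0517), and either omission left 3 genes of the list called lower in place of 5. In edgeR, 0 of the 14 rose at an unadjusted p under 0.05 either, and DESeq2 called 0 higher. This count of 0 did not hold without myoblast replicate 3. There PLPP1, named after its value was seen, was called higher (0.68, edgeR adjusted p = 5.39e-05), against 0.38 ± 0.20 and no call with all libraries. With the members counted in, 3 genes of the list were then called higher in place of 2. DGAT2, the acyltransferase of the last step to triglyceride, was under the filter at 0.329 ± 0.157 and 0.245 ± 0.151 FPKM.

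**Figure D3:**
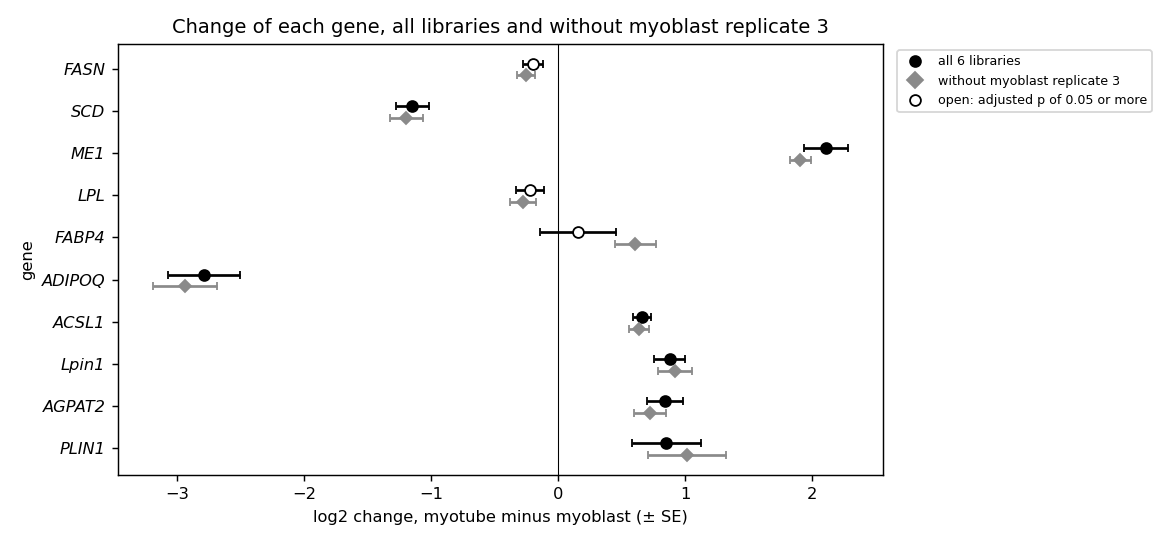
Log2 change of each gene, myotube minus myoblast, with its SE, from all 6 libraries (black circles) and without myoblast replicate 3 (grey diamonds). Open symbols have an adjusted p of 0.05 or more. FASN, LPL and FABP4 are open with all libraries and filled without myoblast replicate 3.

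ADIPOQ, which encodes adiponectin (ENSGALG00000005554, chromosome 9, 5223114 to 5225251), had the lowest mean level of the 10 genes in myotubes, in a range that overlapped PLIN1. It stood at 3.63, 4.13 and 2.65 FPKM in the myoblast libraries, from 153, 164 and 125 counts, and at 0.422, 0.663 and 0.347 FPKM in the myotube libraries, from 17, 26 and 13 counts. Every myotube library was far below the myoblast ones. ADIPOQ fell by 2.79 ± 0.28 on the log2 scale (edgeR adjusted p = 8.30e-05), and its log2 change lay between -3.08 and -2.60 with 1 library left out. By limma on log2(TPM + 1) the change of ADIPOQ was -1.91, or -1.78 relative to the median of all genes, a scale that understates the change of low genes. In edgeR, 96.5% of all tested genes had a smaller absolute log2 change. Of its receptor genes, ADIPOR2 fell from 62.9 ± 7.95 to 38.9 ± 4.03 FPKM (-0.64 ± 0.12, edgeR adjusted p = 0.00225) and CDH13, which encodes the adiponectin-binding T-cadherin, from 147 ± 6.56 to 104 ± 3.49 FPKM (-0.44 ± 0.08), while ADIPOR1 was at 43.3 ± 1.40 and 36.0 ± 2.19 FPKM and had no call (-0.21 ± 0.08, edgeR adjusted p = 0.0552).

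PLIN1, the perilipin that coats the droplets of fat cells (ENSGALG00000023395, chromosome 10, 12822224 to 12826841), rested on few counts. It stood at 0.434, 0.439 and 0.572 FPKM in the myoblast libraries, from 21, 20 and 31 counts, and at 0.908, 0.644 and 0.975 FPKM in the myotube libraries, from 42, 29 and 42 counts. The groups did not overlap, though myoblast replicate 3 and myotube replicate 2 lay close together. PLIN1 was called higher (1.80-fold, 0.85 ± 0.27, edgeR adjusted p = 0.0254) but not by DESeq2 (adjusted p = 0.0608), nor without myoblast replicate 1 or 2 or myotube replicate 1 or 3 (edgeR adjusted p = 0.0832, 0.0723, 0.0810 and 0.0842). PLIN2, the perilipin found in most cell types, was at 90.1 ± 9.40 and 88.7 ± 7.42 FPKM (0.03 ± 0.09, edgeR adjusted p = 0.763) and PLIN3 was under 0.6 FPKM in every library.

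Markers of fat cells differed widely in level, some being low or at 0 in both groups and others high. CIDEC, a droplet protein of fat cells, had 0 counts in all 6 libraries, PLIN1 was under 1 FPKM and ADIPOQ under 4.2 FPKM. DGAT2 and RBP4 did not pass the filter. In contrast, mean FPKM in myoblasts and myotubes was 128 and 138 for FABP4, 99.2 and 262 for G0S2 and 9.41 and 32.4 for PPARG. RBP7 stood at 33.0 ± 6.53 and 34.85 ± 0.559 FPKM with no call. RBP4 and RBP7 were named after their values were seen. Of 21 adipocyte markers 12 had an entry and 9 were tested. Of those 9, 3 were called higher and 2 lower, against 30.0% and 29.1% of all tested genes. The summed level of the 12 markers ran from 262 to 397 FPKM in myoblasts and from 514 to 520 FPKM in myotubes. Most of it came from G0S2, FABP4 and LPL, which also have roles outside fat cells. Within the list, ADIPOQ and CIDEA fell, and PPARG, G0S2 and PLIN1 rose. LIPE, CEBPA, CD36, LEP and 5 further markers were not analysed here.

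Of 9 other tested genes of lipid droplets and lipolysis, 1 was called higher and 2 lower, against 30.0% and 29.1% of all tested genes. The median of the 9 was 0.06. G0S2, an inhibitor of the triglyceride lipase PNPLA2, rose 2.75-fold, from 99.2 ± 17.4 to 262 ± 34.5 FPKM (edgeR adjusted p = 7.05e-05). CIDEA, a droplet fusion protein, fell from 9.59 ± 1.24 to 3.72 ± 0.193 FPKM (-1.31 ± 0.14, edgeR adjusted p = 0.000127) and FITM2, which acts in droplet formation, from 27.3 ± 1.99 to 17.5 ± 0.996 FPKM (-0.58 ± 0.12). PNPLA2 itself, named after its value was seen, had 12.8 ± 0.501 FPKM in myoblasts, 13.2 ± 2.47 FPKM in myotubes and no call (edgeR adjusted p = 0.594).

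Among 29 tested genes of fatty acid oxidation, 12 were called higher, 4 lower and 13 had no call (median 0.12). Shares over all tested genes were 30.0% higher and 29.1% lower. ECHS1, the enoyl-CoA hydratase of mitochondria, rose 2.92-fold from 21.2 ± 2.65 to 59.6 ± 3.77 FPKM (edgeR adjusted p = 1.32e-05), DECR1, which acts on unsaturated fatty acids, 2.64-fold and the acyl-CoA dehydrogenase ACAD11 2.33-fold. CPT1A, which starts the import of fatty acids into mitochondria, fell from 10.8 ± 0.258 to 7.63 ± 1.05 FPKM (-0.45 ± 0.11), as did the dehydrogenase ACADS (-0.35 ± 0.085) and the trifunctional protein subunit HADHB (-0.24 ± 0.07). HADHB lost its call without myoblast replicate 2, myotube replicate 2 or myotube replicate 3 (edgeR adjusted p = 0.0686, 0.0674 and 0.0629).

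Regulators of lipid synthesis and fat cell formation moved in both directions, with 8 of 24 tested higher, 8 lower and 8 without a call. Their median was -0.07. Over all tested genes, 30.0% were called higher and 29.1% lower. PPARG, the nuclear receptor that drives fat cell formation, rose 3.58-fold, from 9.41 ± 0.935 to 32.4 ± 2.17 FPKM (edgeR adjusted p = 6.02e-06), the nuclear receptor RXRG 5.55-fold to 7.44 ± 0.993 FPKM and EBF2, an early B cell factor family member active in fat precursors, 4.01-fold to 12.7 ± 1.53 FPKM. INSIG1, which holds sterol-regulated transcription factors in the endoplasmic reticulum, fell from 88.4 ± 5.98 to 18.4 ± 1.27 FPKM (-2.21 ± 0.10, edgeR adjusted p = 1.88e-06). KLF5 (-1.93 ± 0.29) and the coactivator gene PPARGC1B (-1.26 ± 0.21) fell as well. SREBF1 and SREBF2, whose products control fatty acid and sterol synthesis, were named after their values were seen. SREBF1 had 49.9 ± 4.88 FPKM in myoblasts, 44.8 ± 8.87 FPKM in myotubes and no call (-0.09 ± 0.15, edgeR adjusted p = 0.610, between -0.27 and 0.05 with 1 library left out), and SREBF2 fell by 0.95 ± 0.10 on the log2 scale (edgeR adjusted p = 9.71e-05).

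**Figure D4:**
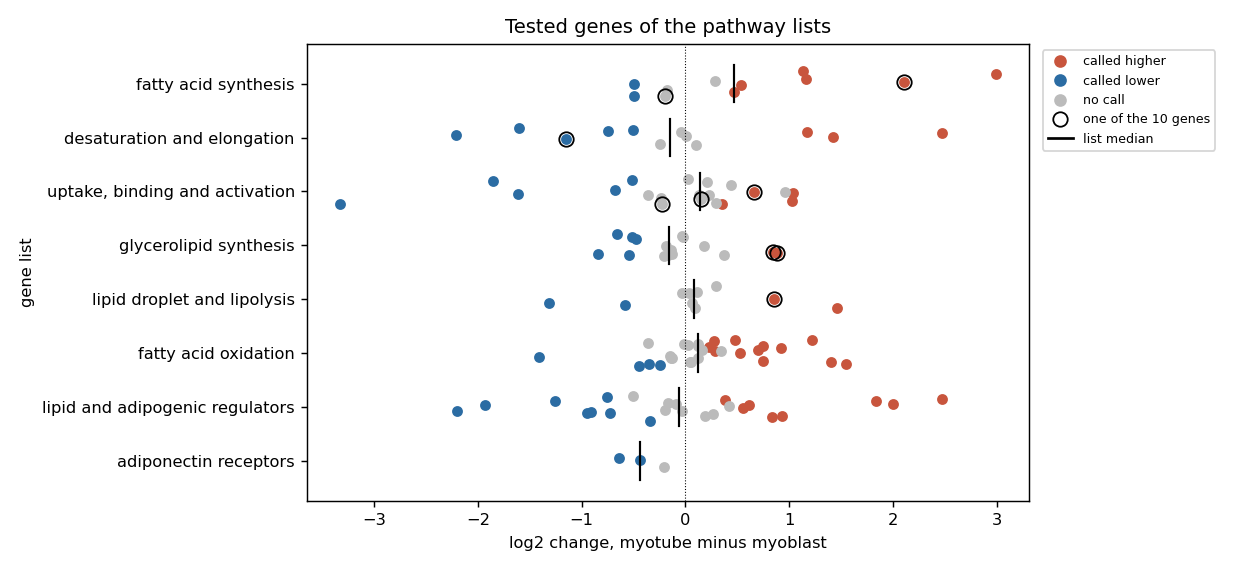
Log2 change, myotube minus myoblast, of the tested genes in 8 pathway lists, with red for called higher, blue for called lower and grey for no call. Black rings mark the genes of the set of 10 and vertical bars the list medians, which lie between -0.44 and 0.46.

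Counted once each and without the 10 genes, the 8 pathway lists held 127 genes with an entry, of which 116 were tested. In these, 32 were called higher (27.6%), 32 lower (27.6%) and 52 had no call, with a median log2 change of 0.03. These shares are close to the 30.0% and 29.1% of all tested genes.

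Within gene families, the share held by the gene of the set did not overlap between the groups in 7 of 8 cases. For scale, the FPKM of 66.7% of all tested genes did not overlap, and a share moves with the gene or with any of its paralogs. Shares in other families were not computed, so this count is a description only. SCD held 90.0 ± 2.16% of the summed FPKM of SCD and SCD5 in myoblasts and 42.3 ± 2.59% in myotubes (mean ± SD, n = 3 each). ME1 held 42.0 ± 5.76% and 69.8 ± 0.868% of ME1 and ME3, where ME3, the mitochondrial enzyme, rose 1.38-fold (edgeR adjusted p = 0.00262). LPL held 21.8 ± 3.30% and 69.9 ± 5.36% of LPL, LIPG and LIPC, with LPL itself without a call and LIPC below the filter. ACSL1 went from 20.8 ± 0.736% to 38.6 ± 0.226% of its 4 paralogs with an entry, Lpin1 from 19.97 ± 1.97% to 39.5 ± 3.10% of the lipin pair and AGPAT2 from 17.8 ± 2.19% to 29.2 ± 2.52% of 4 paralogs. FABP4 was at 27.4 ± 2.42% and 30.2 ± 4.04% of 7 binding protein genes, which overlapped, and PLIN1 at 0.538 ± 0.137% and 0.940 ± 0.205% of the 3 perilipins. An exact permutation test, two-sided, gave p = 0.1 for these 7 shares and p = 0.6 for FABP4. Adjusted over the 8 shares, these p-values were 0.114 and 0.6. Shares without overlap always give 0.1 with 3 against 3 libraries, the smallest value possible, so the test adds nothing to the lack of overlap. On the tabulated lengths the same 7 shares did not overlap, with Lpin1 at 28.2 ± 2.49% and 50.7 ± 3.25%. ME2, ACSL6, LPIN3, AGPAT1, PLIN4 and PLIN5 were not analysed here.

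**Figure D5:**
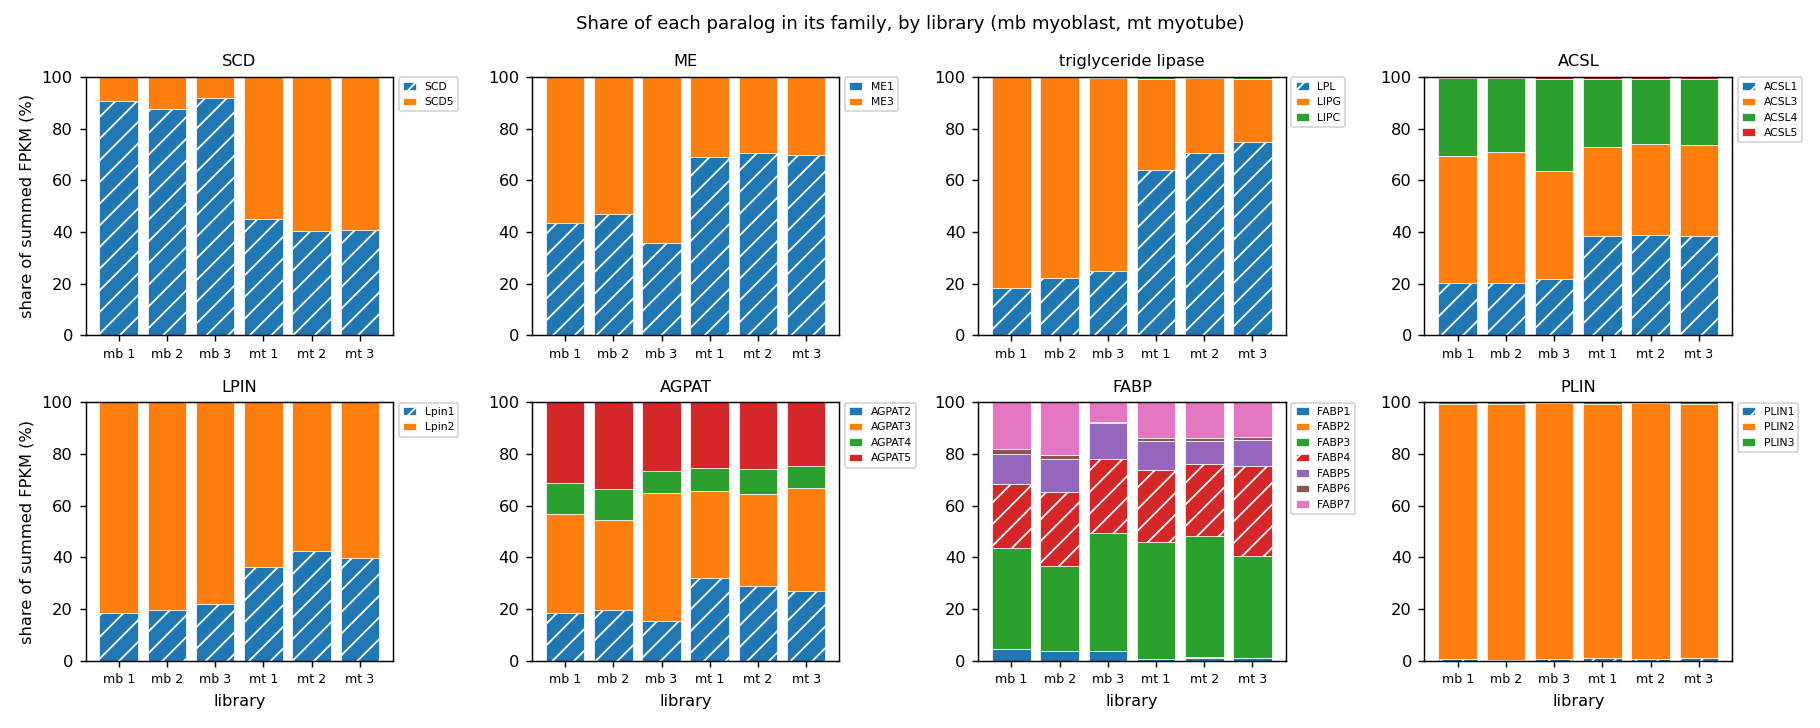
Share of each paralog in the summed FPKM of its family, in percent, 1 stacked bar per library, with the gene of the set of 10 hatched. In the SCD panel the hatched share falls from about 90.0% in myoblasts to about 42.3% in myotubes, and in the ACSL panel it rises from about 20.8% to about 38.6%.

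Patterns most like those of 3 of the genes over the 6 libraries were sought among 8787 genes with a symbol and a mean of at least 1 FPKM, by Pearson correlation of log2(FPKM + 1), as a description of these libraries. FABP4 was closest to CYBB, a subunit of the phagocyte NADPH oxidase (r = 0.999), the immune adaptor gene FYB (r = 0.986) and AP1S3 (r = 0.968). CYBB stood at 5.49, 6.59 and 9.56 FPKM in the myoblast libraries and at 7.16, 7.08 and 8.72 FPKM in the myotube libraries. FASN was closest to DNAJC21 (r = 0.999), SMC4 (r = 0.995) and CEMIP (r = 0.995), and LPL to CTNNB1 (r = 0.989), BTBD3 (r = 0.987) and RER1 (r = 0.983). A correlation does not measure the size of a change. SMC4 and CEMIP were called lower (log2 change -0.72 and -1.31), while DNAJC21, like FASN, had no call (-0.24). At least 0.95 was reached by 8 genes for FABP4, 333 for FASN and 41 for LPL. With only 6 libraries, the order among the closest genes is uncertain.

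Spread between replicates differed between the genes. In myoblasts the coefficient of variation of FPKM ran from 4.14% for Lpin1 and 5.47% for ACSL1 to 28.0% for ME1 and 45.5% for FABP4. In myotubes it ran from 4.21% for ACSL1 and 4.80% for ME1 to 34.6% for ADIPOQ. Myoblast replicate 3 was below the mean of the other myoblast libraries for ME1 (0.592 times), ADIPOQ (0.682 times) and AGPAT2 (0.746 times), and above it for PLIN1 (1.31 times) and FABP4.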

How the data were processed

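RNA-seq of 6 libraries was analysed. Per the submitters' processing notes the authors used HISAT and HTSeq. Neither labels nor tables state versions, genome build, annotation, strand setting or filters. Per the file headers, each deposited table held raw read counts per gene and the authors' FPKM. Groups came from the developmental stage label and replicate numbers from the titles. Per table, 2 lines named no gene and were left out. Counts were tested with edgeR 4.0.16 in R 4.3.3 (quasi-likelihood, filterByExpr with a minimum count of 10 and total of 15, TMM, no block, two-sided, Benjamini-Hochberg over 15959 genes, threshold 0.05). SE was taken as |log2 change| over the root of F. The procedure was tested on simulated counts with few changed genes and a fixed spread between replicates. That setting is simpler than these libraries, so it does not show how the procedure performs on them. Alternatives were DESeq2 1.42.0, other scalings, no filter, limma 3.58.1 on log2(FPKM + 1) with pseudocounts of 0.1 and 5, on TPM and on genes with a mean of at least 1 FPKM, a replicate block, and leaving out each library.

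The 13 gene lists held 249 symbols, of which 60 had no entry and 2 matched through a RefSeq synonym (NR1H3 as LXR, PAX7 as Pax-7). Named were the 10 genes, their paralogs, and in each pathway list up to 3 called genes per direction with a mean of at least 1 FPKM and the largest log2 change. For FASN, LPL and FABP4 the 3 genes of the most similar pattern were added. The deposited FPKM lay within 1% of count over length and total for 66.6% of values. Members and lists were chosen with earlier results of these data known. Sequences were not used here.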

Additional observations from a re-analysis of the deposited data

How the results depend on the processing

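Over 16 alternatives, the 5 rises and 2 falls among the 10 genes kept their direction in every fit that tested them. The call was lost for PLIN1 alone, by DESeq2 and without 4 of the libraries. The number of genes of the set called lower was 4 by limma on log2(TPM + 1), where FASN and LPL were added, and ran from 2 to 4 with 1 library left out. The number called higher then ran from 4 to 6. Over all genes, leaving out 1 library gave 4204 to 5089 rises and 3757 to 4911 falls. With the members counted in, limma on TPM called 4 genes of fatty acid synthesis lower in place of 2, and the droplet list had 1 rise in place of 2 wherever PLIN1 was not called or not tested. With a mean of at least 1 FPKM, 2 endothelial markers were called lower in place of 4. The sign of genes without a call turned in some fits. FABP7 (0.028 with all libraries) was at -0.032 with library totals only, -0.014, -0.015 and -0.015 by limma on log2(FPKM + 0.1), log2(FPKM + 1) and log2(FPKM + 5), -0.015 with a mean of at least 1 FPKM and -0.118 on TPM. PLIN2 (0.034) was at -0.024, -0.022, -0.022, -0.021, -0.022 and -0.125 in the same fits. With 1 library left out the log2 change ran from -0.09 to 0.61 for FABP4, -0.10 to 0.10 for AGPAT3, -0.11 to 0.71 for FABP3, -0.60 to 0.13 for FABP5, -0.089 to 0.19 for FABP7 and -0.017 to 0.11 for PLIN2. The cause was not tested.

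Replicate numbers are shared between the groups. Deviations of same-numbered libraries from their group means correlated at 0.037, 0.03 and -0.05 across genes, and those of differently numbered libraries between -0.121 and 0.102. With 3 libraries per group and myoblast replicate 3 apart from the others, this cannot show whether same-numbered libraries share an animal or a batch. With the replicate block edgeR called 4579 rises and 4381 falls, and 5 rises and 2 falls among the 10 genes. Depth limits PLIN1 and, in myotubes, ADIPOQ, which rest on at most 42 counts per library.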
